A study of Bos taurus with 6 samples.

Results

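Mitochondria fuse, divide and are removed by autophagy, and the transcripts of the genes that carry out these steps were followed here in bovine blastocysts. The genes were chosen by symbol, as the rows of the deposited expression table named MFN1, MFN2, OPA1, DNM1L, FIS1, MFF, PINK1, BNIP3, BNIP3L or FUNDC1. Of these 10 names, 9 were analysed, each under 1 Ensembl identifier, among 36075 genes in the table, and BNIP3 was not analysed here. A gene was tested where 3 or more libraries had 1 TPM or above, which held for 11953 genes, and all 9 had more than 1 TPM in each of the 6 libraries. TPM corrects read numbers for gene length and library total, so levels can be compared between genes.

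The study asked how melatonin (MT), added during oocyte maturation, changed the blastocysts that developed afterwards. Cumulus–oocyte complexes from the ovaries of slaughtered cows were matured for 22 h with 1e-07 mol/L MT or without it, fertilised in vitro and cultured to the blastocyst stage. Each group had 3 libraries (n = 3), each made from a pool of 3 whole blastocysts, so a value averages trophectoderm, inner cell mass and hypoblast cells of several embryos. According to the paper the replicates of a group came from independent production runs. Within each run, pooled complexes were allocated at random to control and MT. The labels do not say which control and MT-treated libraries shared a run. The dose, the time and the pool size were taken from the paper, since the labels give only the treatment and a replicate number. In such bulk samples, fewer cells of a type and less RNA per cell cannot be told apart.

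Fusion of the outer membranes is driven by the mitofusins MFN1 and MFN2, and fusion of the inner membranes by OPA1, all GTPases of the dynamin superfamily. Fission is carried out by another GTPase of that superfamily, DNM1L (also called DRP1), which is recruited from the cytosol to the surface of the mitochondrion by adaptors such as MFF and, in part, FIS1. Damaged or surplus mitochondria are then taken up by autophagosomes. This occurs either after PINK1, a kinase that accumulates on depolarised mitochondria, has started the tagging of their outer membrane with ubiquitin, or through receptors in the outer membrane, such as BNIP3L (also called NIX) and FUNDC1, that bind the LC3 and GABARAP proteins of the autophagosome. Mitochondria of the early embryo are inherited from the oocyte, and their number and shape change as the trophectoderm and the inner cell mass form.

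The groups differed across most of the transcriptome, and every value below stands against that background. Between 8854 and 8953 genes had a TPM above 0 in the control libraries and between 14372 and 14408 in the MT-treated libraries, and the part of this difference in the results was not tested. A gene listed at 0 throughout control is given as such, since any difference between the groups in library making or processing cannot be told apart from the treatment here. At an adjusted p-value under 0.05 (limma on log2(TPM + 1) with Benjamini-Hochberg adjustment over all genes tested), 95.7% of the tested genes differed, 61.6% being higher and 34.1% being lower in MT-treated blastocysts. Of 22 widely expressed genes, 0 were listed at 0 throughout either group, but 9 were called higher and 13 lower (limma). Of 12 trophectoderm markers 7 were higher and 5 lower (limma). CDX2 was at 0 throughout control and at 15.0 to 17.2 TPM with MT, whereas TFAP2A had 36.1 ± 3.99 TPM in control and 0.49 ± 0.052 TPM with MT (SD, n = 3 each). The summed level of the 12, most of it KRT8, was 12293 to 12665 TPM in control and 11166 to 11537 TPM in MT-treated blastocysts. Of 8 inner cell mass markers 4 were higher, 2 lower and 2 not called (limma). NANOG and LIN28A were listed at 0 throughout control and had means of 8.68 and 15.0 TPM with MT. SOX2 rose from at most 0.02 TPM to a mean of 6.54 TPM, and KLF4 from 18.1 to 83.8 TPM. SALL4 fell from 56.8 to 26.6 TPM and LIN28B from 1.21 to 0.42 TPM, while POU5F1 had 188 to 191 TPM in control and a mean of 193 TPM with MT. The sums were 276 to 280.4 TPM in control and 344 to 348 TPM with MT. Hypoblast markers, most of their level being FN1, summed to 223 to 226 TPM in control and to 554 to 559 TPM in MT-treated blastocysts, with GATA4 and FOXA2 at 0 in all libraries and SOX17, HNF4A and PDGFRA at 0 in control, and GATA6 at 0.327 ± 0.121 TPM in control and 32.0 ± 1.14 TPM with MT (SD, n = 3 each). Of 12 cumulus and granulosa cell markers 7 were listed at 0 in all 6 libraries, among them HAS2, PTX3 and FOXL2, whereas PTGS2, HSD3B1, CYP11A1 and FSHR were tested, 2 of them higher and 2 lower (limma), and the sums were 357 to 365 TPM and 376 to 383 TPM. Maternal oocyte transcripts summed to 45.6 to 49.3 TPM in control, where OOEP was the only 1 of the 12 above 0, and to 27.2 to 29.4 TPM in MT-treated blastocysts. OOEP fell from 47.7 to 21.3 TPM and was called lower, whereas TLE6 had a mean of 5.25 TPM with MT and was called higher (limma). BMP15, ZAR1 and MOS were above 0 with MT but below 1 TPM, and were not tested. The part of these marker differences in the results below was not tested.

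Against control, 5 of the 9 genes were higher in MT-treated blastocysts and the other 4 were lower, and the groups did not overlap for any of them, as for 96.1% of all tested genes. Beside them 95.7% of all tested genes were called, so the count is close to the background. The split was 7 and 1 after median centring and 3 and 4 after quantile normalization. BNIP3L, FIS1, MFN1 and MFF rose by 2-fold or more in TPM + 1, as 51.0% of all tested genes did (MFN1 fell under quantile normalization), and MFN2 fell by at least 2-fold, as 19.6% did. PINK1, FUNDC1, DNM1L and OPA1 changed by less. The median log2 fold change was 0.15 over the 9 genes and 1.12 over all tested genes. None of the 9 was listed at 0 in any library. Over the 6925 tested genes of which that holds, the median log2 fold change was -0.19, with 40.6% higher and 52.4% lower.

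**Figure D1:**
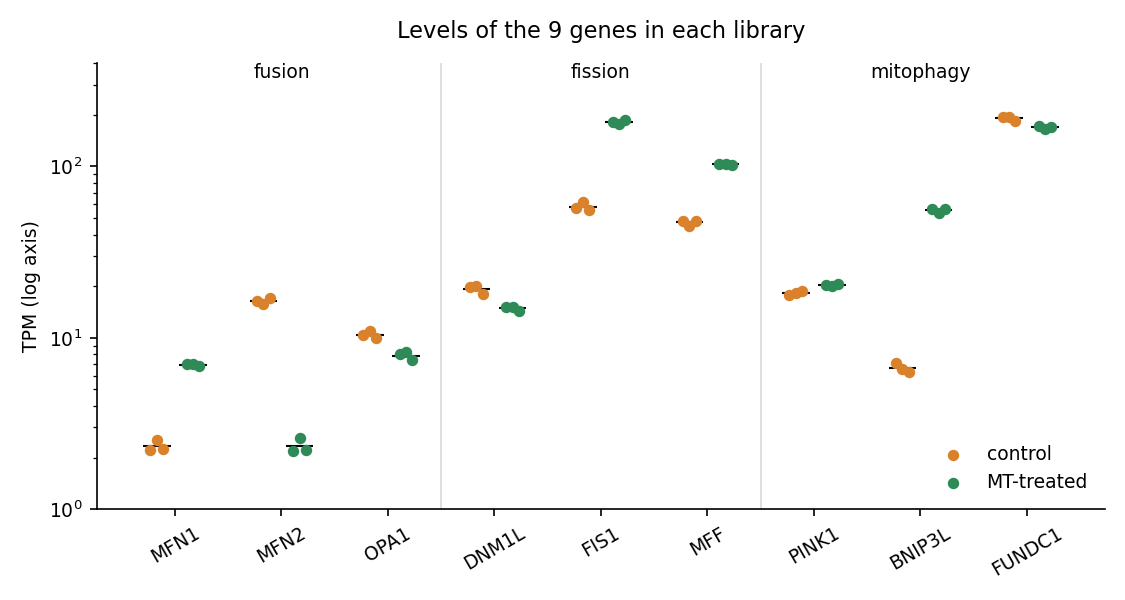
Levels of the 9 genes in TPM on a log axis, with a point for each of the 3 control (orange) and 3 MT-treated (green) libraries and a bar at the group mean. BNIP3L, FIS1, MFF and MFN1 lie higher in MT-treated libraries (MFN1 reverses under quantile normalization), MFN2 lies lower, and the remaining 4 genes lie close to their control values.

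Among the fusion genes, the mitofusins moved in opposite directions in TPM, although MFN1 reversed under quantile normalization. MFN2 (ENSBTAG00000005314), which also tethers mitochondria to the endoplasmic reticulum, had 16.4, 15.7 and 17.2 TPM in control and 2.18, 2.62 and 2.21 TPM in MT-treated blastocysts. Every control value was at least 6-fold above every MT-treated value. The mean fell from 16.4 ± 0.705 to 2.34 ± 0.246 TPM (SD, n = 3 each), 7.03-fold lower (log2 fold change -2.39, SE 0.06, limma adjusted p = 9.17e-08).

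MFN1 (ENSBTAG00000010485), the mitofusin with the stronger tethering activity between outer membranes, had 2.22, 2.53 and 2.25 TPM in control and 7.03, 7 and 6.82 TPM in MT-treated blastocysts. Its mean rose 2.98-fold, from 2.33 ± 0.171 to 6.95 ± 0.114 TPM (SD, n = 3 each; log2 fold change 1.26, SE 0.05, limma adjusted p = 4.65e-07), but under quantile normalization, which gives all libraries the same distribution, the log2 fold change was -1.28. All 3 MT-treated values lay above the control values, while more genes ranked above it in the MT-treated libraries. MFN1 exceeded 46.1 to 46.5% of the tested genes in control libraries and 28.7 to 29.4% in MT-treated libraries.

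A share without an added pseudocount is free of any factor common to its library. MFN2 made up 86.2 to 88.4% of the summed mitofusin TPM in control libraries and 23.7 to 27.2% in MT-treated libraries, and the more abundant mitofusin was thus a different one in each group. Their summed level was 18.3 to 19.4 TPM in control and 9.03 to 9.62 TPM in MT-treated blastocysts. The log2 ratio of MFN2 to MFN1, each with 1 TPM added, which draws the ratio towards 0, stood at 2.39 ± 0.125 in control libraries and at -1.25 ± 0.0995 in MT-treated blastocysts (SD, n = 3 each), a difference of -3.64 (exact permutation test, two-sided, p = 0.1, adjusted p = 0.15 over 3 pairs). With 3 libraries against 3, 0.1 is the smallest p-value this test allows.

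OPA1 (ENSBTAG00000019514), which fuses the inner membrane and holds the cristae junctions closed, had 10.4, 11 and 9.98 TPM in control and 8.01, 8.24 and 7.42 TPM in MT-treated blastocysts. It fell by 24.4% of its control mean (log2 fold change -0.36, SE 0.05, limma adjusted p = 0.000617), which turned to 0.11 and was no longer called (adjusted p = 0.0925 by limma) when each library was centred on the median of the 5988 genes that reached 1 TPM in all of them, whereas quantile normalization gave -2.29 (adjusted p = 6.98e-08 by limma). The centring removed a shift of -0.48 between the groups. The highest MT-treated value was below the lowest control value.

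Among the fission genes, in TPM as deposited, the adaptors rose and the motor did not. FIS1 (ENSBTAG00000007900), a small protein anchored in the outer membrane, had 56.9, 62.0 and 56.0 TPM in control and 181, 177 and 187 TPM in MT-treated blastocysts. The mean rose 3.12-fold, from 58.3 ± 3.24 to 182 ± 5.12 TPM (SD, n = 3 each; log2 fold change 1.62, SE 0.04, limma adjusted p = 1.06e-07). MFF (ENSBTAG00000021319), the main receptor for DNM1L in many mammalian cells, had 48.4, 45.0 and 48.3 TPM in control and 104, 103 and 102 TPM in MT-treated blastocysts. Its mean rose 2.18-fold, from 47.2 ± 1.91 to 103 ± 0.906 TPM (SD, n = 3 each; log2 fold change 1.11, SE 0.03, limma adjusted p = 1.54e-07). For both adaptors every MT-treated library was above every control library.

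DNM1L (ENSBTAG00000011395), the GTPase that constricts the mitochondrion, had 19.7, 20 and 18 TPM in control and 15.2, 15.2 and 14.4 TPM in MT-treated blastocysts. It fell by 22.3% of its control mean (log2 fold change -0.34, SE 0.05, limma adjusted p = 0.000513), with no overlap between the groups, but the log2 fold change was 0.14 and called in the opposite direction (adjusted p = 0.0411 by limma) after median centring, and -1.13 after quantile normalization. The adaptor transcripts thus stood in a different proportion to that of the motor. FIS1 and MFF together had 5.34 to 5.78 times the TPM of DNM1L in control libraries and 18.4 to 20.1 times in MT-treated libraries, a ratio formed after the values were seen and not tested.

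Of the other 2 pairs compared within libraries, MFF over FIS1 had a log2 ratio of -0.30 ± 0.135 in control and -0.81 ± 0.0488 in MT-treated blastocysts (SD, n = 3 each), a difference of -0.51 (exact permutation test, two-sided, p = 0.1, adjusted p = 0.15). FIS1 was the more abundant adaptor in all 6 libraries, by a wider margin in the MT-treated libraries. DNM1L over OPA1 had a log2 ratio of 0.82 ± 0.0381 in control and 0.84 ± 0.0308 in MT-treated blastocysts (SD, n = 3 each), a difference of 0.02 that was smaller than the spread between replicates (exact permutation test, two-sided, p = 0.5).

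**Figure D2:**
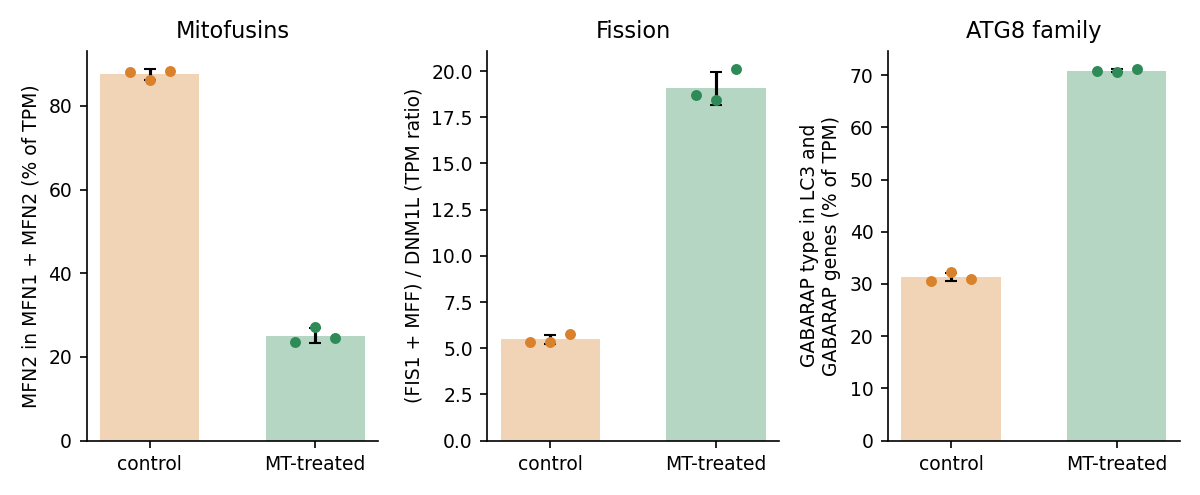
Proportions within each library, with a point per library, a bar at the mean of 3 libraries and an error bar of 1 SD. MFN2 falls from 86.2 to 88.4% of mitofusin TPM in control to 23.7 to 27.2% in MT-treated blastocysts, whereas the ratio of FIS1 and MFF to DNM1L and the share of GABARAP-type genes among the LC3 and GABARAP genes are higher in every MT-treated library.

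BNIP3L (ENSBTAG00000021307) showed the largest log2 fold change of the 9 genes in TPM as deposited, although under quantile normalization that of MFN2 was larger in size. This receptor clears mitochondria from maturing red blood cells and is a known target of hypoxia-inducible factors. It had 7.14, 6.57 and 6.33 TPM in control and 56.2, 53.6 and 56.3 TPM in MT-treated blastocysts, far apart and with little spread in either group. The mean rose 8.29-fold, from 6.68 ± 0.416 to 55.4 ± 1.55 TPM (SD, n = 3 each; log2 fold change 2.88, SE 0.05, limma adjusted p = 1.00e-08), and its rank rose from 51.9 to 52.7% of the tested genes exceeded in control to 82.1 to 82.9% in MT-treated libraries.

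FUNDC1 (ENSBTAG00000001637), the receptor whose binding to LC3 is set by its phosphorylation, was the most abundant of the 9 genes in control blastocysts. It had 194, 193 and 185 TPM in control and 173, 166 and 169 TPM in MT-treated blastocysts, each below all control values. It fell by 11.4% of its control mean (log2 fold change -0.17, SE 0.03, limma adjusted p = 0.001), whereas the log2 fold change was 0.31 after median centring and called in the opposite direction (adjusted p = 7.76e-05 by limma), and 0.05 and not called after quantile normalization. Its rank hardly differed, with 92.9 to 93.3% of the tested genes exceeded in control and 93.3 to 93.6% in MT-treated libraries. BNIP3L had 0.034 to 0.0367 times the TPM of FUNDC1 in control and 0.323 to 0.333 times in MT-treated libraries, a ratio formed after the values were seen.

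PINK1 (ENSBTAG00000006084) had 17.9, 18.2 and 18.8 TPM in control and 20.4, 19.9 and 20.7 TPM in MT-treated blastocysts, where even the lowest value was above those of control. It rose by 11.3% of its control mean (log2 fold change 0.15, SE 0.03, limma adjusted p = 0.00451), but the log2 fold change was -0.11 and not called under quantile normalization (adjusted p = 0.0642 by limma). Median centring gave 0.63 (adjusted p = 1.71e-06 by limma) and centring on mitochondrial content genes 0.26. With TPM as deposited it had the smallest log2 fold change in size of the 9 genes, which held under none of the 3 other scalings. Its protein is controlled mainly by import and degradation, which transcript levels do not show.

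**Figure D3:**
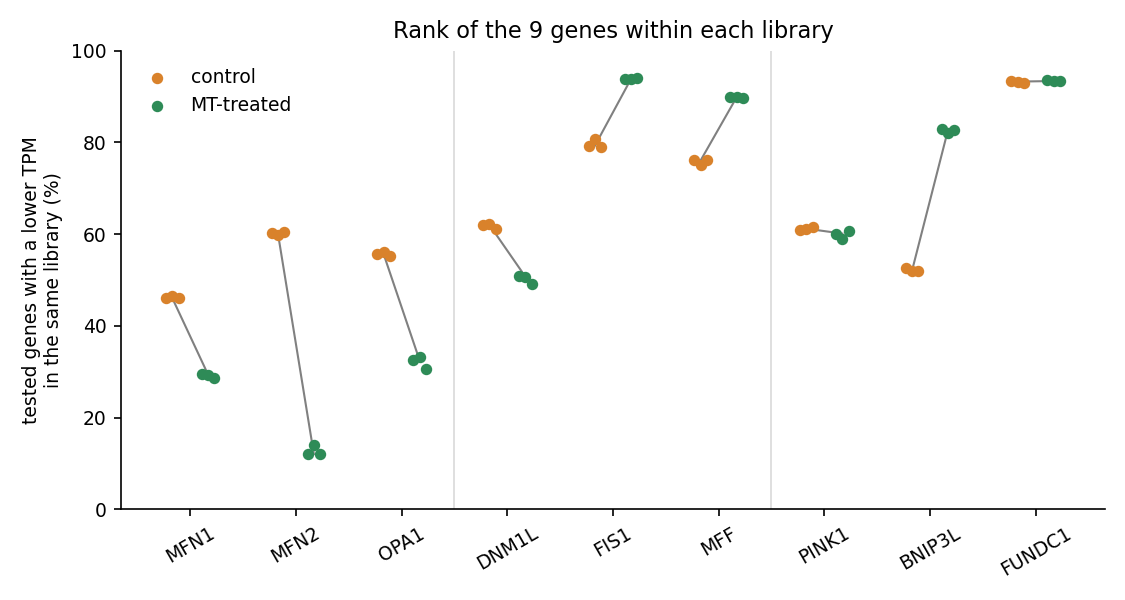
Rank of each of the 9 genes within each library, as the percentage of the 11953 tested genes with a lower TPM, for control (orange) and MT-treated (green) libraries, with a line between the group medians. FIS1, MFF and BNIP3L rank higher in MT-treated libraries, the fusion genes and DNM1L rank lower, and PINK1 and FUNDC1 hold nearly the same place.

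Ranks compare a gene with the others in its own library and carry no unit. FIS1 moved from 79.0 to 80.8% of the tested genes exceeded in control to 93.8 to 94.0% in MT-treated libraries, and MFF from 75.1 to 76.3% to 89.8 to 89.9%. MFN2 moved the other way, from 59.7 to 60.5% to 12 to 13.9%. OPA1 moved from 55.3 to 56.1% to 30.5 to 33.1% and DNM1L from 61.0 to 62.3% to 49.2 to 51.0%. PINK1 stayed between 59.0 and 61.5% in all libraries. All 3 fusion genes, MFN1 included, therefore had more tested genes above them in MT-treated than in control libraries, although MFN1 rose in TPM. Many tested genes were listed at 0 in control, which raises the rank of every gene with a value there.

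Ordered by level, the genes in control blastocysts ran from FUNDC1, FIS1 and MFF through DNM1L, PINK1, MFN2 and OPA1 to BNIP3L and MFN1. The ranges of DNM1L and PINK1 overlapped, and all other neighbours in that order were apart. In MT-treated blastocysts the order was FIS1, FUNDC1, MFF, BNIP3L, PINK1, DNM1L, OPA1, MFN1 and MFN2, and no neighbours overlapped. The 9 genes summed to 361 to 374 TPM in control and 552 to 567 TPM in MT-treated libraries. FUNDC1 made up 51.1 to 52.1% of that sum in control and 29.8 to 30.5% in MT-treated libraries, FIS1 15.2 to 16.6% and 31.9 to 33.1%, and BNIP3L 1.75 to 1.91% and 9.70 to 9.94%. Within groups the coefficient of variation of the 9 genes lay between 0.879% for MFF and 10.5% for MFN2, both in MT-treated blastocysts. For PINK1 and FUNDC1, the genes with the smallest changes in TPM as deposited, it was between 1.88 and 2.84%.

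**Figure D4:**
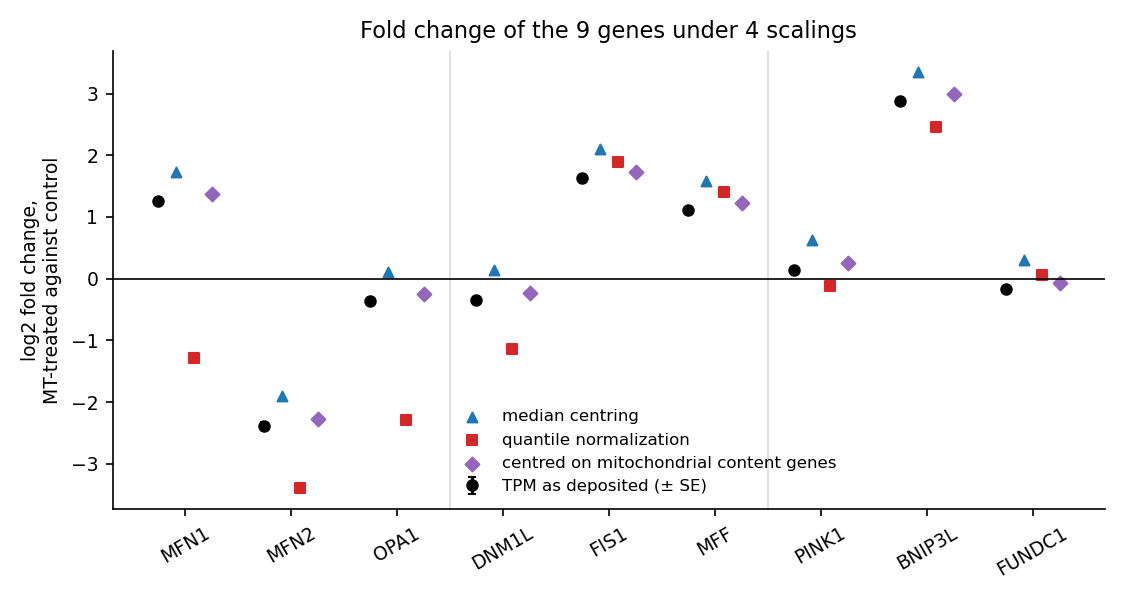
Log2 fold change of the 9 genes, MT-treated against control, with TPM as deposited (black, with the standard error, which is smaller than the symbol) and under 3 other scalings. BNIP3L, FIS1, MFF and MFN2 keep their direction under all 4 scalings, whereas MFN1, OPA1, DNM1L, PINK1 and FUNDC1 each change sign under at least 1 of them.

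Because a scaling moves all genes of a library, the split of the 9 genes was also read under 3 others. Median centring left 7 genes higher and 1 lower, and quantile normalization 3 higher and 4 lower, against 5 and 4 with TPM as deposited. The shares of all tested genes called higher and lower were 70.4% and 25.4% with median centring, and 46.4% and 44.4% with quantile normalization. Centring on 12 genes that stand for mitochondrial content, chosen as a scaling after the data were seen, moved the values by 0.11 and left 5 higher and 3 lower, beside 63.6% and 31.9% of all tested genes. BNIP3L, FIS1 and MFF were higher and MFN2 was lower under all 4 scalings, with log2 fold changes from 2.47 to 3.36, from 1.62 to 2.10, from 1.11 to 1.59 and from -3.40 to -1.91.

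The genes whose levels lay nearest to BNIP3L over the 6 libraries, by Euclidean distance of log2(TPM + 1), were NMT1, TMEM140 and MED28, at distances of 0.21, 0.27 and 0.28. NMT1 had 7.13 ± 0.171 TPM in control and 58.0 ± 1.12 TPM in MT-treated blastocysts (SD, n = 3 each). Nearest to MFN2 were SCARB2, IPO7 and COG8, at distances of 0.26, 0.29 and 0.29. SCARB2 had 17.1 ± 0.0462 TPM in control and 2.62 ± 0.102 TPM in MT-treated blastocysts (SD, n = 3 each).

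The other genes of these pathways were read from 7 lists with 103 names, of which 101 were listed and 94 tested. Of these 94, 56 were higher (59.6%) and 30 lower (31.9%), beside 61.6% and 34.1% of all tested genes, and 19 of the 56 were listed at 0 in every control library. The median log2 fold change was 0.33, and 1.12 over all tested genes. Median centring gave 73 and 19, and quantile normalization 55 and 34. Of the 73 above 0 in all 6 libraries, 36 were higher (49.3%) and 29 lower (39.7%), beside 40.6% and 52.4% of all such genes. No fold change is given where a whole group is listed at 0.

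Among 13 tested regulators of fusion, 7 were higher, 3 of them from 0 throughout control, and 5 lower (limma). Of the 10 above 0 in all libraries, 4 were higher and 5 lower. YME1L1 and OMA1, the proteases of the inner membrane that cleave OPA1, were listed at 0 in every control library. YME1L1 had 28.3, 27.2 and 28.3 TPM and OMA1 23.9, 24.5 and 25.4 TPM in the MT-treated libraries. The subunits of another inner membrane protease moved the other way. SPG7 fell from 21.2 ± 0.612 to 5.89 ± 0.191 TPM and AFG3L2 from 140 ± 10.1 to 50.6 ± 1.65 TPM (SD, n = 3 each; adjusted p = 3.78e-08 and 6.03e-07 by limma). PHB2, a prohibitin of the inner membrane that also binds LC3, had 131 ± 2.35 and 125 ± 7.09 TPM (SD, n = 3 each) and was not called (adjusted p = 0.229 by limma).

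Among 15 tested regulators of fission, 9 were higher, 5 of them from 0 throughout control, and 6 lower (limma), and 7 were higher and 8 lower after quantile normalization. With all libraries above 0 there were 9 genes, 4 higher and 5 lower. MTFR1L and MUL1, a ubiquitin and SUMO ligase of the outer membrane, were listed at 0 throughout control. MTFR1L had 19.2, 18.9 and 20.3 TPM and MUL1 13.4, 13.7 and 14.2 TPM in the MT-treated libraries. GDAP1 had 6.71, 6.59 and 7.04 TPM in control and was listed at 0 in every MT-treated library. MTFP1, a protein of the inner membrane that promotes fission, fell 6.73-fold, from 36.6 ± 0.465 to 5.43 ± 0.356 TPM (SD, n = 3 each; adjusted p = 1.47e-08 by limma). The adaptor MIEF1, which recruits DNM1L beside MFF, was listed at 0 throughout control and at 10.9, 11.2 and 10.8 TPM with MT. It was chosen after its values were seen.

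Among 16 other tested genes of the PINK1 pathway, 7 were higher and 7 lower (limma), and 12 were higher and 3 lower after median centring. CHCHD2, a small protein of the intermembrane space, rose 1.75-fold, from 731 ± 7.74 to 1277 ± 13.5 TPM (SD, n = 3 each; adjusted p = 8.50e-09 by limma), while PINK1 rose 1.11-fold. RHOT1, a Miro GTPase that anchors mitochondria to motor proteins, was listed at 0 throughout control and at 4.48, 4.75 and 5.02 TPM with MT. USP30, a deubiquitinase of the outer membrane that opposes mitophagy, fell 2.39-fold, from 60.6 ± 3.23 to 25.4 ± 3.61 TPM, and the ubiquitin ligase HUWE1 fell 4.89-fold, from 84.9 ± 3.60 to 17.4 ± 1.22 TPM (SD, n = 3 each; adjusted p = 3.34e-05 and 7.60e-08 by limma).

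Among 18 tested receptors and adaptors of mitophagy, 12 were higher, 2 of them from 0 throughout control, and 5 lower (limma). After median centring 15 were higher and 3 lower. With all libraries above 0 there were 15 genes, 9 higher and 5 lower. NIPSNAP2, a matrix protein that marks damaged mitochondria, had 0.04, 0.12 and 0.15 TPM in control and 102, 101 and 100.2 TPM in MT-treated blastocysts. BCL2L13, an outer membrane receptor, had 0, 0 and 0.13 TPM in control and 23.7, 21.9 and 21.4 TPM in MT-treated blastocysts. AMBRA1, a regulator of autophagy initiation, fell 5.63-fold, from 9 ± 0.360 to 1.6 ± 0.178 TPM (SD, n = 3 each; adjusted p = 1.87e-07 by limma).

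The partners that BNIP3L and FUNDC1 bind on the autophagosome split by subfamily. MAP1LC3B fell 1.68-fold, from 148 ± 3.92 to 88.4 ± 2.23 TPM (SD, n = 3 each; adjusted p = 6.56e-07 by limma). MAP1LC3A fell as well, whereas GABARAP rose 2.5-fold and GABARAPL2 4.05-fold (adjusted p = 6.07e-05, 1.15e-07 and 3.30e-08 by limma). GABARAPL1 was listed at 0 throughout control and at 12.8, 13.2 and 12.3 TPM with MT. The GABARAP-type genes made up 30.7 to 32.2% of the summed TPM of these 5 genes in control and 70.6 to 71.1% in MT-treated libraries. These genes other than MAP1LC3B, and the share, were picked after the values were seen, and each of the 5 kept its direction under median centring and quantile normalization.

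Of 10 tested genes of cristae organisation and mitochondrial transport, 9 were higher and 0 lower (limma), and 4 of the 9 were listed at 0 throughout control. Of all tested genes 61.6% were higher and 34.1% lower. With all libraries above 0 there were 6 genes, 5 higher and 0 lower, beside 40.6% and 52.4% of all such genes. The gene not called was IMMT, the core subunit of the MICOS complex, with 43.5 ± 1.01 TPM in control and 43.8 ± 0.687 TPM in MT-treated blastocysts (SD, n = 3 each; adjusted p = 0.735 by limma). APOO, another MICOS subunit, rose 31.1-fold, from 4.56 ± 0.255 to 142 ± 3.78 TPM (SD, n = 3 each; adjusted p = 1.02e-09 by limma). TRAK1, which links mitochondria to kinesin, was listed at 0 throughout control and at 31.2, 20.5 and 22.6 TPM with MT.

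Genes that stand for mitochondrial content had small log2 fold changes. Of 12, 4 were higher, 6 lower and 2 not called (limma), and their log2 fold changes lay between -0.82 for HSPE1 and 0.46 for ATP5F1A, although 10 were higher and 2 lower after median centring. HSPE1, a matrix chaperonin, fell from 1885 ± 27.0 to 1067 ± 24.2 TPM, and VDAC3, a channel of the outer membrane, from 187 ± 3.76 to 107 ± 0.154 TPM (SD, n = 3 each; adjusted p = 5.58e-08 and 6.08e-08 by limma). ATP5F1A rose from 816 ± 5.97 to 1124 ± 9.92 TPM and CS, citrate synthase, from 141 ± 5.97 to 177 ± 7.55 TPM (SD, n = 3 each; adjusted p = 5.33e-08 and 0.000391 by limma). The 12 genes summed to 9500.2 to 9581 TPM in control and 9026 to 9088 TPM in MT-treated libraries. In TPM as deposited, BNIP3L, FIS1, MFF, MFN1 and MFN2 lay outside the range of fold changes of these 12 genes. PINK1, FUNDC1, DNM1L and OPA1 lay inside it. Of all tested genes, 51.0% rose and 19.6% fell by 2-fold or more, and these lay outside that range as well.

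Among transcription factors known to act on genes of mitochondrial turnover, 8 of 10 tested were higher, 4 of them from 0 throughout control, and 1 lower (limma). After quantile normalization, however, 4 were higher and 4 lower. With all libraries above 0 there were 6 genes, 4 higher and 1 lower. TFEB, which drives genes of autophagy and lysosomes, had 0.37, 0.39 and 0.28 TPM in control and 106, 82.3 and 102 TPM in MT-treated blastocysts. EPAS1, the hypoxia-inducible factor 2 alpha subunit, had 0.59, 0.65 and 0.61 TPM in control and 38.8, 34.1 and 46.0 TPM in MT-treated blastocysts. TFE3, a relative of TFEB, fell from 17.4 ± 0.127 to 12.8 ± 0.455 TPM (SD, n = 3 each; adjusted p = 2.99e-05 by limma), a log2 fold change of -0.42 that was 0.06 and not called after median centring. HIF1A, a factor known to induce BNIP3L under hypoxia, was chosen after its values were seen. It was listed at 0 throughout control and at 7.48, 7.22 and 7.20 TPM with MT, while its partner ARNT was listed at 0 in all 6.

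**Figure D5:**
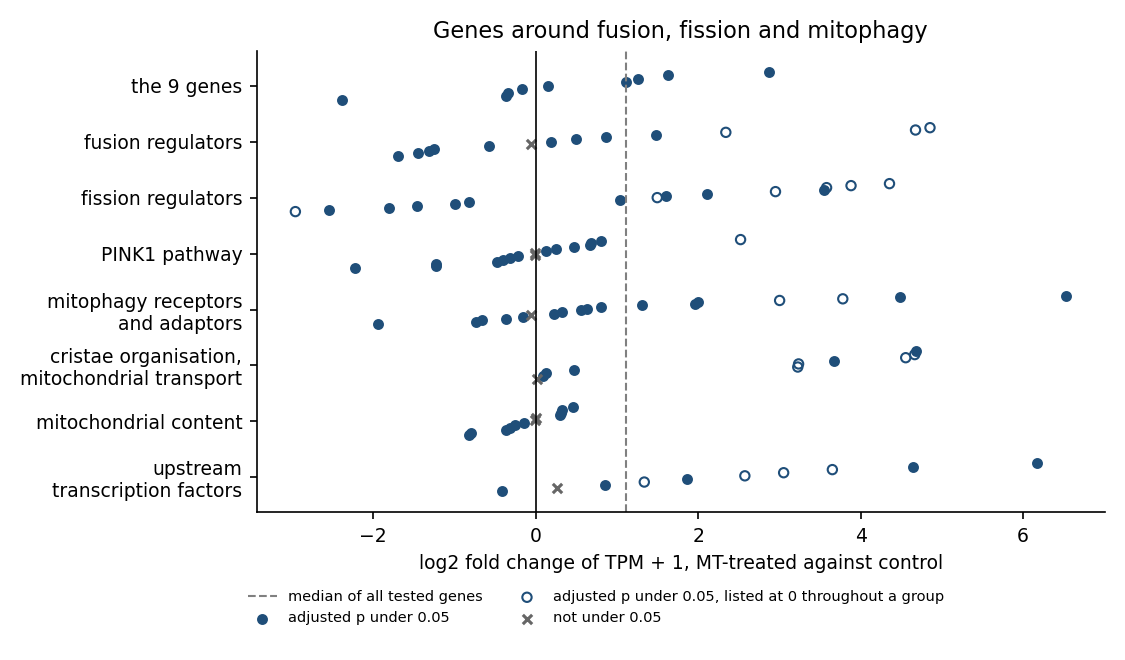
Log2 fold change of TPM + 1, MT-treated against control, for the 9 genes and the tested genes of the 7 lists, a symbol per gene, with open circles for genes listed at 0 throughout a group, whose position depends on the added 1, and crosses for genes not called. The dashed line marks the median of all tested genes at 1.12, and the genes of mitochondrial content all lie between -0.82 and 0.46.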

How the data were processed

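RNA of bovine blastocysts was sequenced in 6 libraries, 3 control and 3 MT-treated. The deposited values are TPM with 2 decimals, made by the authors. Per the paper, reads were aligned with STAR and counted with featureCounts, and how counts became TPM is not given in the sources used here. The submitters' processing notes name ARS-UCD1.2 and the paper a later release of that assembly. The paper names Smart-seq2 and the labels a TruSeq kit. TPM keeps no counts, and read depth per library was not used here, so no counting error is given. The listed TPM summed to between 912686 and 937698 per library.

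Values were transformed to log2(TPM + 1) and fitted by lmFit and a trended eBayes (limma 3.58.1, R 4.3.3) without covariates, over genes that reached 1 TPM in 3 or more libraries, with Benjamini-Hochberg adjustment at 0.05. Ratios within a library were compared by exact permutation tests. Ranks and figures were made with Python 3.11.15. A pair of BNIP3L and BNIP3 had also been planned and was not analysed.

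The members, lists and tests were chosen with earlier results of these data known. The lists were written from general knowledge. Of their names, 2 in the pathway lists and 2 among the markers were not analysed here, 1 further gene is not reported here, and the prohibitin PHB was matched to PHB1 through RefSeq. Genes named were the 9, up to 2 rises and 2 falls with the largest log2 fold changes per list among called genes whose groups do not overlap, and the 3 nearest genes to the largest rise and fall. Other names are marked as chosen after their values were seen, apart from tissue markers and genes not called. The alternatives changed the pseudocount (0.1), the filter (none, or 5 TPM), the scaling (median centring or quantile normalization) or the trend (none), or used a replicate block or left out each library in turn over the same tested genes. Keeping only genes above 0 in every library and centring on mitochondrial content genes were added after the data were seen. The fit was tested on simulated data.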

Additional observations from a re-analysis of the deposited data

How the results depend on the processing

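With 0.1 as the pseudocount, no filter, a filter at 5 TPM, or no trend, each of the 9 genes kept its direction and stayed called by limma. After median centring the log2 fold change was 0.11 for OPA1, 0.14 for DNM1L, 0.31 for FUNDC1 and 0.059 for TFE3, all reversed, the number of lower genes was 1 in place of 4 among the 9 and 19 in place of 30 among the pathway genes. After quantile normalization it was -1.28 for MFN1, -0.11 for PINK1 and 0.054 for FUNDC1, also reversed, and 3 of the 9 were higher in place of 5. Centred on mitochondrial content genes, FUNDC1 had -0.064 and was not called (adjusted p = 0.0602 by limma). Among genes above 0 in all 6 libraries 36 pathway genes were higher in place of 56, since genes at 0 in control are left out there.

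With each library left out in turn, 5 of the 9 genes were higher and 4 lower throughout, and 56 to 57 pathway genes were higher and 30 lower. Same-numbered libraries did not deviate together (correlations of -0.01, -0.000679 and 0.06 over the tested genes), not every library correlated best with its own number, and the labels do not pair them. With the replicate block, 11461 genes were called in place of 11438, and the direction and call of 0 of 55 results changed, the log2 fold change of BNIP3L being 2.88 and that of MFN2 -2.39. Read depth was not used here, so values near 0 in control are given without a counting error.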
